A study of Mus musculus with 4 samples.

Results

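The cells described here came from the neonatal mouse sciatic nerve and carried transcripts of genes that Schwann cells turn on when they begin to make myelin. A cell was taken as a member when its UMIs (unique molecular identifiers, each counting 1 captured transcript) from Mag, Prx, Ncmap and Pllp summed to at least 3. It also had to hold 0 UMIs of Pdgfra, Pecam1 and Ptprc, which mark mesenchymal, endothelial and immune cells, and 0 of the proliferation genes Mki67 and Top2a. Of 8700 neonatal barcodes, 742 met this rule, out of 13200 barcodes in the 4 libraries of the series. They comprised 480 cells of the sorted library and 262 cells of the bead-cleared library.

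All nerves came from wild-type CD1 mice and were digested with collagenase and trypsin before Drop-seq, a droplet method that tags transcripts at their 3′ end. One neonatal library (P3-P4) was made from cells sorted by FACS for high Hoechst signal and absence of propidium iodide, and is called FACS here. The study's methods speak of injured nerve for this suspension where the label says neonatal, and the label was followed. The other (P2-P3) was made from cells cleared with myelin removal beads and is called beads. Adult uninjured nerve and distal nerve 3 days post injury, both bead-cleared, were the remaining libraries. With 1 library per preparation and an unstated number of animals in each, no difference below has a replicate check, no test was possible, and age, preparation and library cannot be told apart. All 95% intervals, given in parentheses, cover counting error only.

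In development, a Schwann cell that has sorted out a single large axon leaves the cell cycle, induces the transcription factor Egr2 (Krox20) and wraps the axon in membrane. Compact myelin is built from a few abundant proteins such as PMP22 and myelin basic protein, and from large amounts of cholesterol and galactolipid. Mag and periaxin (Prx) sit in the non-compacted membranes, Mag facing the axon and periaxin facing the basal lamina. Genes of the immature Schwann cell, among them Ngfr, Ncam1, L1cam and Jun, are switched off as this proceeds and return after nerve injury.

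Schwann cell identity was checked with genes that the rule did not use. At least 1 UMI of Sox10, Erbb3, Cdh19, Foxd3 or S100b was found in 344 of 480 FACS members (71.7%, 67.4 to 75.7) and in 198 of 262 bead members (75.6%, 69.9 to 80.7). Endothelial cells of the same libraries were used throughout as a measure of free RNA in the droplets. That measure serves only for genes that endothelial cells do not express themselves. A UMI of Sox10, Erbb3, Cdh19, Foxd3 or S100b was found in 5.98% of 117 FACS and 3.84% of 365 bead endothelial cells. The endothelial cells were taken by at least 3 UMIs of Pecam1, Cdh5, Egfl7, Emcn, Kdr and Plvap with 0 of Sox10, Pdgfra, Ptprc, Mki67 and Top2a, so Sox10 could not add to their share. Median depth was 1696 UMIs in FACS members, 1584.5 in bead members, and 2290 and 1491 in the endothelial cells. At least 3 UMIs of the 4 markers occurred in 3 of 117 FACS and 1 of 365 bead endothelial cells, shares of 2.56% (0.532 to 7.31) and 0.274% (0.00694 to 1.52). The libraries held 5110171 UMIs (FACS), 7634799 (beads), 4513814 (adult uninjured) and 8123103 (3 days post injury), and 3 cell barcodes occurred in both neonatal libraries, none of them a member.

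Members made up 20.8% (19.2 to 22.5) of the 2306 FACS barcodes that passed the filters and 4.57% (4.04 to 5.14) of the 5736 bead barcodes. The sort gate and the bead step can both set such shares. The same rule found 83 of 1945 cells in the adult uninjured nerve (4.27%, 3.41 to 5.26) and 1 of 2281 after injury. Among cells with 3 or more marker UMIs, Mki67 or Top2a had removed 28 of 521 in the FACS library (5.37%) and 44 of 315 in the bead library (14.0%), against 0 of 103 in the adult library.

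The members were chosen by the UMIs of the 4 marker genes, so their levels are given as a description only. Levels are given in CPM, the UMIs of a gene summed over a set of cells, per 1000000 UMIs of that set. Mag, the myelin-associated glycoprotein, stood at 1157 CPM (1095 to 1223) in FACS and 663 (592 to 740) in bead members. Prx stood at 1787 CPM (1709 to 1867) and 1440.5 (1335 to 1552). Ncmap, a protein of non-compact myelin, stood at 997 CPM (939 to 1058) and 254 (211 to 303), and Pllp, plasmolipin, at 1457 (1387 to 1530) and 746 (671 to 828). Of the 4, Ncmap differed most between the preparations, with a UMI in 53.5% of FACS members and 15.6% of bead members, against 4.27% and 0% of endothelial cells. The median member held 6 marker UMIs in the FACS library and 4 in the bead library, and all 4 genes were present in 144 of 480 FACS and 15 of 262 bead members.

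Cells at the threshold differed between the preparations. The genes called compact myelin genes here were a list of 13, not all of them structural proteins of compact myelin. Among them were Mbp, Pmp22, Pmp2, Mal, Cd9, Cldn19, Cnp, Bcas1 and the lipid enzymes Ugt8a and Fa2h. They supplied 3.37% of UMIs in the 155 FACS cells with 2 marker UMIs, just outside the rule. In the 96 FACS cells with 3, just inside it, they supplied 5.19%. In the bead library the 293 cells with 2 and the 113 cells with 3 marker UMIs gave 1.54% and 1.84%. FACS members with 10 or more marker UMIs, 165 cells, reached 15.9%, and the 23 such bead members 9.13%. Cholesterol synthesis and uptake genes supplied 0.321% of UMIs at 3 markers and 1.01% at 10 or more in FACS members. In bead members the share was 0.150%, 0.122%, 0.0987% and 0.533% across the 4 bins, so that of the 23 cells in the last bin stood apart. The plot of levels by marker UMIs shows the same cells for 6 single genes, with the cells of 1 and 2 marker UMIs to the left of the threshold.

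**Figure D1:**
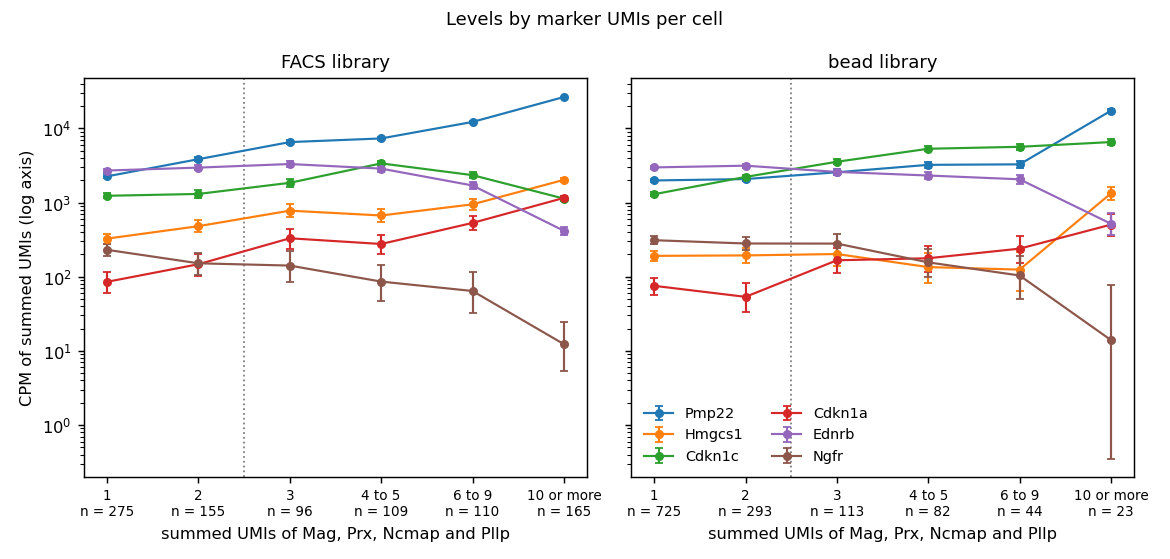
Level (CPM, log axis) of 6 genes in cells binned by their summed UMIs of the 4 markers, for the FACS and bead libraries, with bars for counting intervals and a dotted line at the rule's threshold. In the bead library Cdkn1c stands at 3544 CPM with 3 marker UMIs and 6531 with 10 or more, and in the FACS library Cdkn1a stands at 330 and 1154.

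Compact myelin transcripts were read as a share of each cell's UMIs. The median FACS member gave 13.4% of its UMIs to these genes, with quartiles of 4.14% and 19.98% and a highest value of 35.2%. The median bead member gave 1.99%, with a highest value of 23.4%, and the median adult member 11.9%. Schwann cells that passed the same filters with 0 marker UMIs and at least 2 UMIs of Sox10, Erbb3, Cdh19, Foxd3 and S100b, called reference cells here, had medians of 1.92% (103 FACS cells) and 1.46% (450 bead cells). The bead members and bead reference cells overlapped over most of their range, and 39 of 262 bead members lay above the highest bead reference cell, at 3.68%. In FACS 8 of 480 members lay above the highest reference cell, at 27.8%, and 433 lay above the reference median, as did 187 bead members. For most bead members the data therefore showed the early marker genes without the high compact myelin load seen in most FACS members, and the name of the cells as ones that have begun myelination rests there on the 4 markers.

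**Figure D2:**
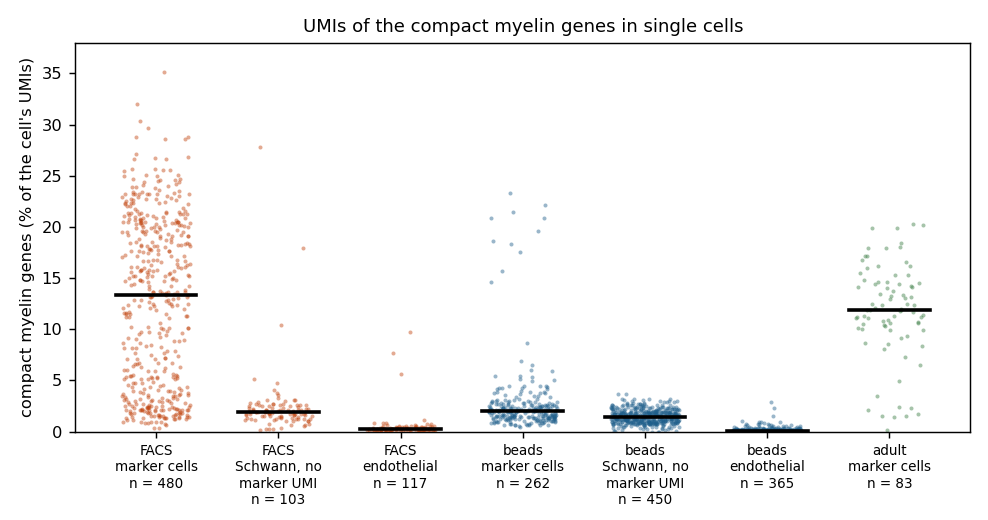
Share of each cell's UMIs from the compact myelin genes (percent) in members, reference cells and endothelial cells of each neonatal library and in adult members, with 1 point per cell and a line at the median. FACS members have a median of 13.4% and bead members one of 1.99%, beside reference medians of 1.92% and 1.46%.

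To follow the members along this scale, they were divided into 3 ranges of the compact myelin share, under 5%, 5 to 10% and 10% or more. The ranges were chosen after the data were seen and are stretches of a continuous score, not cell types, and 36 FACS and 18 bead members lay within 1 percentage point of the 5% limit. Of FACS members, 132 (27.5%, 23.6 to 31.7) fell under 5%, 63 between and 285 (59.4%, 54.8 to 63.8) at 10% or more. Of bead members, 241 (92.0%, 88.0 to 94.97) fell under 5%, 10 between and 11 (4.198%, 2.11 to 7.39) at 10% or more. Of the 83 adult members, 63 (75.9%) were at 10% or more. The bead members in the highest range stood apart from the rest, with none between 8.61% and 14.6%. Median depth was 2335 UMIs in the lowest FACS range and 1198 in the highest, against 1608 and 2276 in beads. Compact myelin levels differ between ranges by construction, and all other genes are described below, without a test.

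The levels of 2 inhibitors of cyclin-dependent kinases differed along the scale in opposite directions. Cdkn1c encodes p57, an inhibitor active in embryonic and early postnatal cells as they leave the cell cycle. It stood at 4015 CPM (3807 to 4231) in FACS members under 5% compact myelin, 2729 between 5 and 10% and 239 (202 to 281) at 10% or more. In bead members the levels were 5309 (5096 to 5529), 2036 and 70.3 CPM (8.51 to 254), the last from 2 UMIs in 11 cells. The level was lowest in the cells richest in myelin transcripts in both libraries.

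Cdkn1a, which encodes p21, ran the other way. FACS members held 158 CPM (119 to 206) under 5%, 465 between and 1290 (1202 to 1382) at 10% or more. Bead members held 191 (152 to 237), 113 and 949 CPM (625 to 1380.4), and adult members at 10% or more held 2561 (2233 to 2924). Cdkn1b, encoding p27, stood at 583 and 1086 CPM in the lowest and highest FACS ranges and at 562 and 316 in the bead ranges, the last from 9 UMIs. At the level of cells, 149 FACS members had a UMI of Cdkn1a but not of Cdkn1c, 100 had Cdkn1c alone, 103 both and 128 neither. Among bead members the counts were 10, 117, 48 and 87, and among adult members 58, 2, 4 and 19. Cells with Cdkn1a alone were the most frequent class among FACS and adult members, and cells with Cdkn1c alone among bead members. In endothelial cells, 5.98% (FACS) and 3.01% (beads) had a UMI of Cdkn1a and 32.5% and 28.2% one of Cdkn1c.

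By number of marker UMIs, which the rule used and which went with depth, Cdkn1c levels were ordered differently. From the cells with 1 marker UMI, just outside the rule, to those with 10 or more, bead Cdkn1c levels were 1294, 2214, 3544 (3265 to 3840), 5307, 5639 and 6531 CPM (5952 to 7151). In the FACS library the same bins gave 1233, 1305, 1844, 3369 (3093 to 3663), 2340 and 1129 CPM, highest at 4 to 5 marker UMIs. Cdkn1a stood at 330 CPM (238 to 445) with 3 marker UMIs and 1154 (1073 to 1239) with 10 or more in FACS members, and at 166 (111 to 241) and 503 (353 to 697) in bead members. Median depth was 1389 UMIs with 3 marker UMIs and 3198 with 10 or more in bead members, and 889 and 3328 in FACS members. Cells were also binned by marker UMIs per 1000 UMIs of the cell. Cdkn1c then stood at 3610, 2920 and 441 CPM in FACS and at 5348, 4991 and 3133 in beads. The level was lowest in the highest bin of both libraries. Median depth fell along these bins, from 2521 to 1161 UMIs in FACS and from 2111 to 792 in beads. The bins therefore do not remove depth.

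**Figure D3:**
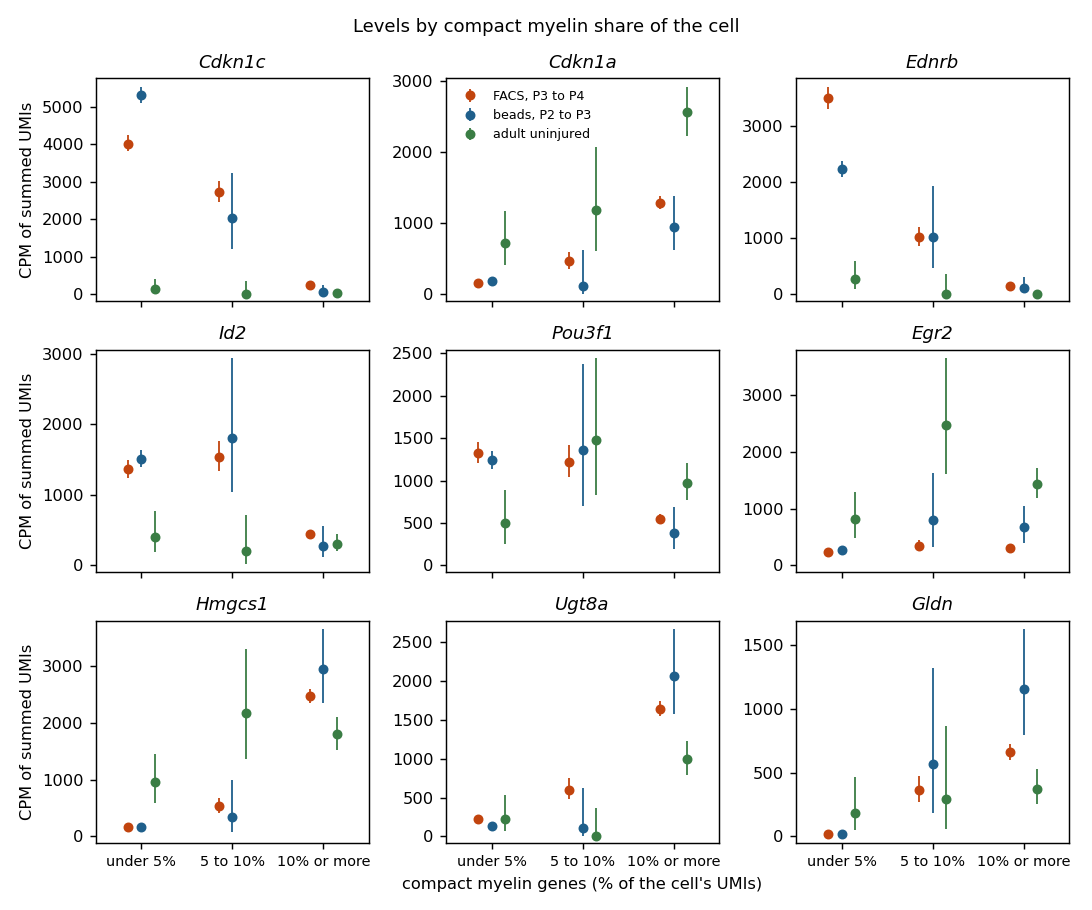
Level (CPM, linear axis from 0) of 9 genes in members with under 5%, 5 to 10% and 10% or more of UMIs from compact myelin genes, for FACS, bead and adult members, with counting intervals as bars. In FACS members Cdkn1c stands at 4015 CPM in the lowest range and 239 in the highest, and Cdkn1a at 158 and 1290.

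Lipid synthesis genes stood higher where the myelin share was higher. Of 24 cholesterol genes past the filter in FACS members, 22 were at least 2-fold higher at 10% or more compact myelin than under 5%, and 0 lower, where 7.56% of all genes were higher and 16.8% lower. In bead members 15 of 15 were higher, where 9.58% of all genes were. Hmgcs1, which makes HMG-CoA at the head of the pathway, stood at 167 CPM (126 to 215) in the lowest FACS range and 2474 (2353 to 2600.5) in the highest, and at 166 (130 to 209) and 2952 (2354 to 3654) in the bead ranges. Ugt8a, which forms galactosylceramide, the main myelin galactolipid, belongs to the lists of myelin and of sphingolipid genes and, like Fa2h, was used to set the ranges. Of 27 fatty acid and sphingolipid genes, 16 were higher and 1 (Elovl5) lower in FACS, where 7.56% and 16.8% of all genes were. Of 22 in beads, 11 were higher and 0 lower, where 9.58% and 19.7% were. Ugt8a and Fa2h are among those counted as higher in both libraries, where their difference is by construction.

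Several genes of the node and of the outer myelin domains also stood higher there. Gldn (gliomedin), which clusters sodium channels at the node, stood at 23.0 CPM (9.92 to 45.3) in FACS members under 5% and 660 (598 to 727) at 10% or more, and at 22.7 (10.9 to 41.8) and 1160 (798 to 1628) in bead members. Drp2, which joins periaxin to the dystroglycan complex of the outer membrane, had 0 UMIs in the lowest range of both libraries and 121 and 11 UMIs in the highest, or 193 and 387 CPM. Emid1, an extracellular protein outside all lists, stood at 290 and 2249 CPM in FACS and 218 and 2179 in beads. Mpp6, a scaffold protein of myelin incisures, differed less, with 345 and 799 CPM in FACS and 478 and 457 in beads. In all, 8 of 18 junction and node genes were higher and 3 lower in FACS, where 7.56% of all genes were higher and 16.8% lower, and 4 of 12 were higher and 2 lower in beads, where 9.58% and 19.7% were. The lower counts are near the background.

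Most immature Schwann genes of the FACS library, and fewer of the bead library, were counted as lower in the highest range. Of 15 such genes past the filter, 14 were at least 2-fold lower at 10% or more than under 5% in FACS members. In bead members 5 of 12 were. In either library 0 were higher. Over all genes, 16.8% were lower in FACS and 19.7% in beads. The highest bead range held 28459 UMIs in 11 cells, so with the floor of 3 counts a gene at 0 there could miss the 2-fold limit. Ncam1, with 61 UMIs in the lowest bead range and 0 in the highest, was not counted as lower. Ednrb, the endothelin B receptor, stood at 3504 CPM (3310.1 to 3706) and 143 (115 to 176) in the lowest and highest FACS ranges and at 2238 (2101 to 2383) and 105 (21.7 to 308) in the bead ranges. Id2, an inhibitor of bHLH factors, stood at 1361, 1541 and 440 CPM across the 3 FACS ranges and at 1510, 1810 and 281 in beads, the middle bead value from 16 UMIs. Ngfr, the p75 neurotrophin receptor, had 45 UMIs in the lowest FACS range and 1 in the highest, and 79 and 1 in beads. Jun, which drives the repair programme after injury, stood at 931 and 140 CPM in FACS but at 1385 and 1019 in beads.

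Among the transcription factors, Pou3f1 (Oct6), which precedes Egr2 in the pathway, stood at 1327 CPM (1209 to 1454) under 5% and 547 (490 to 608) at 10% or more in FACS members, and at 1240 (1138 to 1348) and 387 (193 to 692) in bead members. Egr2 itself stood at 227 (180 to 283) and 300 CPM (258 to 346) in FACS, within 2-fold, and at 271 (224 to 324) and 668 (402 to 1043) in beads, the last from 19 UMIs. Egr2 was thus already detected, in 32.6% of FACS and 30.7% of bead members, where compact myelin was under 5%, against 0.855% and 2.19% of endothelial cells. Of 15 factors past the filter in FACS, 1 was higher (Nr4a2) and 5 were lower (Pou3f1, Pou3f2, Srebf1, Tcf7l2 and Zeb2), where 7.56% and 16.8% of all genes were. Of 12 in beads, 2 were higher (Egr2 and Nr4a2) and 3 lower (Hdac2, Nab2 and Pou3f1), where 9.58% and 19.7% were.

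Markers of other cells differed between the ranges too. All 7 mesenchymal markers past the filter were lower at 10% or more in FACS, where 16.8% of all genes were, and 3 of 4 in beads, where 19.7% were, with a summed share of UMIs of 1.61% and 0.441% in the lowest and highest FACS ranges and 0.878% and 0.267% in the bead ranges. Egfl7, the 1 endothelial marker past the filter, was at least 2-fold higher at 10% or more in both libraries (log2 ratio 1.58 in FACS and 1.86 in beads), and all 3 erythroid genes were lower there in beads (median -2.85). The part of these transcripts in the differences between ranges was not tested.

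Outside the lists, genes were drawn from the 10 with the largest folds in each direction between the FACS ranges and read in the bead library. Kcnk1, a potassium channel, had 1 and 103 UMIs in the lowest and highest FACS ranges and 1 and 6 in the bead ranges. Ecscr, known from endothelial cells, stood at 8.62 and 304 CPM in FACS and 13.6 and 597 in beads, and Mme (neprilysin), a membrane peptidase, at 14.4 and 395 in FACS, with 1 and 10 UMIs in beads. Slc36a2, an amino acid transporter, stood at 40.2 and 614 CPM in the lowest and highest FACS ranges and at 25.02 and 457 in the bead ranges. Sncg, a synuclein, stood at 43.1 and 539 CPM, and at 36.4 and 1406 in beads. On the lower side, Ntm (neurotrimin), a neural adhesion molecule, had 60 UMIs in the lowest and 1 in the highest FACS range, and 139 and 0 in beads. Scn7a, a sodium channel, had 83 and 4 UMIs, and 90 and 0 in beads. Sparcl1, a matrix protein, stood at 1528 and 62.2 CPM in FACS, and in beads it had 677 UMIs in the lowest range and 0 in the highest. Over 4372 genes that passed the filter in both libraries, 228 were at least 2-fold higher at 10% or more in FACS, and 141 of these were also higher in beads, where 422 were. Of 708 lower in FACS, 212 were also lower among the 871 lower in beads, where the highest range held 28459 UMIs in 11 cells.

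Between the preparations, members as a whole differed in lipid synthesis and compact myelin genes. Of 24 cholesterol genes past the filter, 22 were at least 2-fold higher in FACS than in bead members and 0 lower (median log2 ratio 1.97), where 8.44% of all genes were higher and 6.75% lower. Hmgcs1 stood at 1514 CPM in FACS and 335 in bead members, a ratio of 4.51 (3.84 to 5.34). Tm7sf2, a sterol reductase, gave 10.9 (4.55 to 34.2). The reference cells gave 1.49 (1.1 to 2.02) for Hmgcs1, and 5 of 21 cholesterol genes were 2-fold higher in FACS reference cells, where 5.77% of all genes were. Pmp22, a structural protein of compact myelin, stood at 19157 CPM in FACS and 5106 in bead members, a ratio of 3.75 (3.60 to 3.91), against 1.21 (1.08 to 1.36) between the reference cells. Of the compact myelin genes, 8 of 12 were higher in FACS members and 0 of 10 in FACS reference cells. Over all genes, 8.44% and 5.77% were higher. In either set 0 compact myelin genes were lower, where 6.75% and 7.69% of all genes were.

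Within a range of the myelin share the cholesterol and compact myelin genes of the 2 preparations lay closer than in all members. Over all genes the shares past 2-fold were lower under 5% but not at 10% or more. Under 5%, 3 of 20 cholesterol genes were at least 2-fold higher in FACS (Hsd17b7, Sc5d and Stard4) and 0 lower, where 6.52% of all genes were higher and 4.66% lower. At 10% or more, 3 of 24 were higher (Dhcr7, Hsd17b7 and Tm7sf2) and 0 lower, where 8.52% were higher and 11.9% lower. Hmgcs1 was at 167 and 166 CPM in the lowest range and 2474 and 2952 in the highest. All 12 compact myelin genes were within 2-fold in both ranges, a closeness that the ranges themselves favour because they were set on these genes. Cholesterol genes supplied 0.163% and 0.121% of UMIs in the lowest range and 1.16% and 1.17% in the highest. Markers of other cells did not come closer under 5%. Of 7 mesenchymal markers, 5 were 2-fold higher in FACS there (median log2 ratio 2.13) and 4 in all members (1.54). At 10% or more, 2 of the 4 past the filter were higher (1.13), a smaller set of genes. All 3 erythroid genes past the filter were higher in beads under 5%. Divided instead by marker UMIs, 17 of 24 cholesterol genes were higher in FACS at 3 to 9 markers and 12 of 24 at 10 or more, where 6.69% and 15.4% of all genes were.

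Genes of other origin also separated the preparations. Haemoglobin transcripts led those higher in beads, with Hbb-bs at 12 UMIs in FACS and 934 in bead members, and they differed in the same direction between the reference cells, at 3 and 839 UMIs. Erythroid markers summed to 15.3 CPM in FACS, 3590 in bead and 3630 in adult members. A few cells carried these sums, since the median bead member held 0.0481% and the highest 53.4%, and the median adult member 0.0458% and the highest 32.98%. Their part in other differences was not tested. Mesenchymal markers summed to 9290 CPM in FACS members and 29110 in FACS reference cells, and to 8387 and 14864 in the bead library. A few cells weighed on the FACS reference sum, and by the median cell the shares were 0.596% and 1.35% in FACS and 0.740% and 1.08% in beads. Endothelial markers summed to 49.5 CPM in FACS, 90.2 in bead and 374 in adult members, and immune markers to 49.5, 0 and 17.0. Pericyte and smooth muscle markers summed to 75.6, 79.7 and 1377 CPM. Against adult members, 4 of 4 of them were lower in FACS (median log2 ratio -5.01) and 3 of 3 in beads (-4.37). Over all genes, 10.7% were lower in FACS and 11.8% in beads. Of the 83 adult members, 57 held none of the pericyte and smooth muscle markers. Of the genes with the largest folds toward FACS, Nfasc, the neurofascin of node and paranode, had 84 UMIs in FACS and 3 in bead members, a ratio of 12.0 (3.97 to 59.5). Igfbp5, a binding protein of insulin-like growth factors, had 110 and 4 UMIs, and it was also 4.41-fold (2.95 to 6.67) higher in FACS than in bead reference cells.

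Members were next set beside the reference cells of their own library. This contrast chose the members, so the counts are a description from which nothing is read. Of 7679 genes past the filter in FACS, 11.2% were at least 2-fold higher and 11.7% lower in members, and of 6926 in beads, 4.68% and 7.39%. In both libraries together, 147 genes (2.22%) were higher and 207 (3.13%) lower. Among compact myelin genes 11 of 12 were higher in FACS and 8 of 12 in beads, with 0 lower. Pmp22 stood at 2306 CPM in FACS and 1902 in bead reference cells, against 19157 and 5106 in the members. Pmp2, a fatty acid binding protein of myelin, stood at 1773 against 55.2 CPM in FACS and 463 against 6.06 in beads.

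Free myelin RNA was present in both libraries and more so in the sorted one. Endothelial cells held 1566 CPM of Mbp in FACS and 106 in beads, with a UMI in 56.4% and 11.0% of cells, against 97.7% and 94.7% of members. For Pmp22 the endothelial levels were 412 and 113 CPM. The member levels were 15876 and 4969 CPM for Mbp, and 19157 and 5106 for Pmp22.

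Cell cycle inhibitors were higher in members than in reference cells of both libraries. Cdkn1a was 23.8-fold (11.5 to 59.3) higher in FACS and 2.47-fold in beads, and Cdkn1c 2.36-fold (1.99 to 2.81) in FACS and 7.19-fold (6.41 to 8.08) in beads. Cdkn1b stood at 937 against 236 CPM in FACS and 566 against 220 in beads. Proliferating cells had been removed from members and reference cells alike by Mki67 and Top2a, which touches every cell cycle value.

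Egr2 stood at 282 CPM in FACS and 304 in bead members, against 25.1 and 62.6 in the reference cells. Gldn was 42.3-fold higher in FACS and 8.31-fold in bead members, Fa2h, which hydroxylates the fatty acids of myelin lipids, 49.8-fold and 6.09-fold, and Utrn, a dystrophin relative of the outer membrane, 3.44-fold and 2.34-fold. Elovl1, an elongase for very long fatty acids, was 4.81-fold and 2.34-fold higher. Of the cholesterol genes, 18 of 24 were 2-fold higher in FACS members than in reference cells and 0 of 22 in bead members, and for fatty acid and sphingolipid genes the counts were 12 of 27 and 4 of 25. Of 14 Charcot-Marie-Tooth disease genes past the filter, which cause inherited neuropathy when mutated, 7 were higher in FACS. In beads 4 of 13 were, with Pmp22, Pmp2 and Egr2 among both. Over all genes, 11.2% were higher in FACS and 4.68% in beads.

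For the immature genes, 8 of 15 in FACS and 9 of 15 in beads were at least 2-fold lower in members than in reference cells. In either library 0 were higher. Over all genes, 11.7% were lower in FACS and 7.39% in beads. Ngfr stood at 46 against 266 CPM in FACS and 168 against 444 in beads, and the adhesion molecule Ncam1 at 80 against 251 and 130 against 303. L1cam, which binds axons, had 27 against 23 UMIs in FACS and 27 against 88 in beads, or 4.75-fold and 3.14-fold lower in CPM. The cadherin Cdh2 was 5.37-fold and 2.79-fold lower, and the Notch target Hes1 4.80-fold and 2.15-fold. Matrix genes Fn1 and Vcan were lower in both libraries, by 2.90 and 7.43-fold and by 3.63 and 2.73-fold. Mesenchymal markers were lower in members as well, 5 of 7 in FACS and 4 of 7 in beads.

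Receptors for axonal and laminin signals were mostly within 2-fold of the reference cells. In both libraries Erbb3 and Ngfr were at least 2-fold lower in members, and Utrn was higher. The reference cells had been chosen partly by UMIs of Erbb3. Itga6, a laminin-binding integrin subunit, gave a ratio of 0.981 (0.837 to 1.15) in FACS and 0.997 (0.872 to 1.14) in beads, with levels of 900 and 914 CPM in the members. Dag1, dystroglycan, gave 1.70 (1.22 to 2.41) and 1.51 (1.14 to 1.99), and dystrophin (Dmd) 1.74 and 1.94. Over the list, 2 of 27 genes were higher and 7 lower in FACS, where 11.2% of all genes were higher and 11.7% lower, and 3 of 28 were higher and 2 lower in beads, where 4.68% and 7.39% were. Among basal lamina genes, laminin β1 (Lamb1) gave 0.836 (0.727 to 0.964) and 0.949 (0.842 to 1.07), whereas Lama4 was 2.56-fold lower in FACS and 1.38-fold lower in beads.

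The study listed 143 ligands detected in injured nerve cells. Of these, 43 had a UMI in at least 2% of FACS members and 34 in at least 2% of bead members. After every cell was thinned to 500 UMIs the counts were 23 and 24. The reference cells gave similar counts, 44 and 34, or 32 and 24 thinned. Adult members gave 45, or 27 thinned. For 10 and 13 of the ligands the interval of the share in FACS and bead members lay above that in endothelial cells. In the reference cells it did for 8 and 11. The study detected some of these ligands, Fstl1 and Hbegf among them, in neonatal endothelial cells as well. For those the comparison cannot set expression apart from free RNA. In FACS, 8 of 39 ligands past the filter were higher and 14 lower in members than in reference cells. Over all genes, 11.2% were higher and 11.7% lower. In beads 1 of 31 was higher and 9 lower, where 4.68% and 7.39% of all genes were. Angpt2, an angiopoietin, was the ligand higher in both. Ptn (pleiotrophin), a heparin-binding growth factor, was 6.68-fold lower in FACS and 2.75-fold lower in beads, and Sfrp1, a Wnt antagonist, 6.39-fold and 2.59-fold lower. Hbegf, an EGF receptor ligand, was 2.63-fold and 2.48-fold lower. Fgf1 was within 2-fold, at 1.96 (1.06 to 4.03) and 1.71 (0.954 to 3.15).

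Outside the lists, 10 genes in each direction were picked for the largest fold present in both libraries. Csrp2, a LIM domain protein, had 2021 UMIs in FACS members, 12.1-fold (8.44 to 18.0) above reference, and 428 in bead members, 4.36-fold (3.50 to 5.46) above. Dusp15, a phosphatase, was 11.4-fold and 8.44-fold higher, and Mgll, monoacylglycerol lipase, 11.1-fold and 4.89-fold. Emid1 was 27.3-fold and 19.4-fold higher. On the lower side, Entpd2, an enzyme that splits extracellular ATP, was 7.92-fold and 3.50-fold lower, and Emp1 9.01-fold and 4.54-fold.

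Adult members, 83 cells with a median of 1092 UMIs, were bead-cleared like the P2-P3 cells. Both neonatal sets are compared with the same adult library, so their values are given side by side. Of 7444 genes, 21.1% were at least 2-fold higher and 10.7% lower in FACS than in adult members, and of 5252 in beads, 29% and 11.8%, with median log2 ratios over all genes of 0.15 and 0.37. Compact myelin levels were near those of adult cells in FACS, with 1 of 12 genes higher and 1 lower and a median log2 ratio of -0.06, which turned to 0.11 under median-of-ratios scaling. In beads 1 was higher and 8 were lower, with a median of -1.56.

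Pmp2 was the compact myelin gene higher in both neonatal sets, at 1773 and 463 CPM against 145 in adult members, 12.3-fold (7.64 to 21.1) and 3.21-fold. It stood at 2959 CPM (2826 to 3097) in FACS members, 5517 (4688 to 6450.3) in bead members and 129 (64.2 to 230) in adult members with 10% or more compact myelin. Cdkn1c was 29.0-fold (14.1 to 72.3) and 82.9-fold (40.2 to 207) higher than in adult members, where it had 7 UMIs. Ednrb was 21.9-fold and 35.1-fold higher, and Mpp6 4.86-fold and 3.53-fold. Laminin β1 (Lamb1) was 3.15-fold (2.28 to 4.48) and 3.50-fold (2.52 to 5.0) higher, and among 18 basal lamina genes 7 were higher and 1 lower in FACS, where 21.1% of all genes were higher and 10.7% lower. In beads 7 of 16 were higher and 0 lower, where 29% and 11.8% of all genes were. Ngfr had 0 UMIs in adult members, so its neonatal levels were at least 1.8-fold and 6.58-fold higher, taking 3 counts over the adult cells as the floor.

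Other genes stood higher in the adult. By fold in both neonatal sets, the first 10 were Acta2, Apod, Atf3, Btg2, Gadd45b, Hspa1a, Junb, Klf2, Tagln and Zfp36. Drp2 and Egr2 were not among them. Drp2 was 6.30-fold lower in FACS and 25.6-fold lower in bead members, and Egr2 4.98-fold and 4.61-fold lower. At 10% or more compact myelin, Egr2 stood at 1427 CPM (1185 to 1704) in adult members, against 300 in FACS and 668 in beads. Jun was 11.9-fold and 3.64-fold lower, and Egr1, another immediate early gene, 28.1-fold and 8.29-fold lower. Jun levels also differed between the neonatal libraries in endothelial cells, at 345 CPM in FACS and 877 in beads, and the part of cell preparation in these differences was not tested. Cholesterol genes split by preparation. In FACS 8 of 24 were higher and 0 lower than in adult members (median log2 ratio 0.49). Over all genes, 21.1% were higher and 10.7% lower. In beads 0 of 18 were higher and 12 lower (-1.39), where 29% and 11.8% of all genes were. Hmgcs1 stood at 1514 CPM in FACS, 335 in bead and 1675 in adult members.

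**Figure D4:**
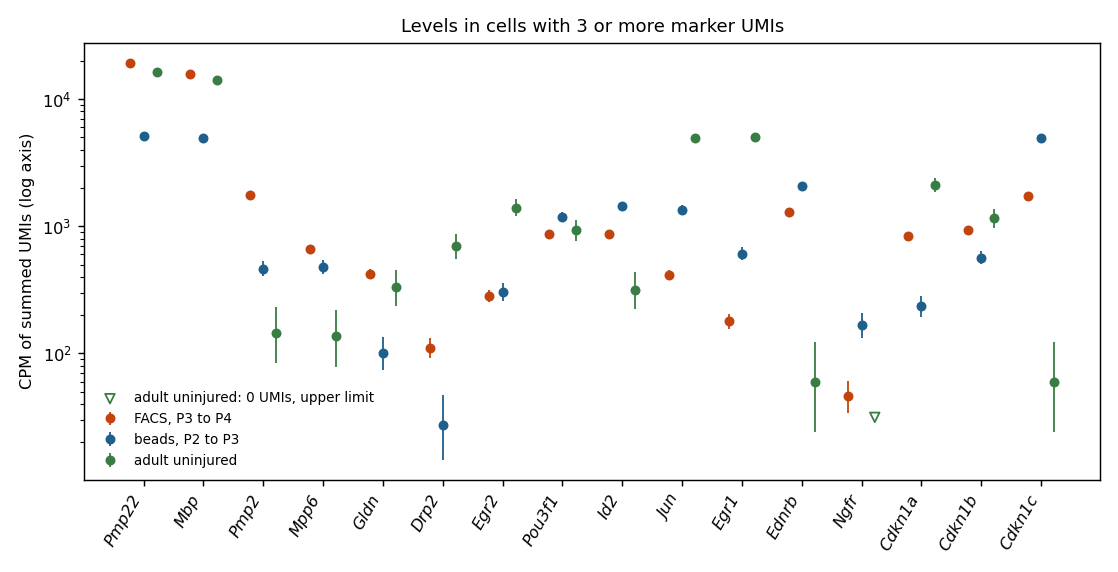
Level (CPM, log axis) of 16 genes in FACS, bead and adult members, with bars for counting intervals and an open triangle for the upper limit of Ngfr in adult members. Cdkn1c and Ednrb lie above the adult level in both neonatal sets, whereas Egr2, Drp2 and Jun lie below it.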

How the data were processed

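The authors deposited raw UMI counts per gene and cell barcode for each Drop-seq library, aligned to mm10 per the submitters' processing notes. No source used here names the aligner or its version. Barcodes with at least 200 genes and at most 10% of UMIs from mt- genes were kept. Doublets were kept, and a scrublet filter was an alternative. UMIs were summed over cells of a set and scaled to CPM, with exact Poisson intervals for levels, Clopper-Pearson intervals for shares and conditional binomial intervals for ratios, at 95%. A gene needed 20 UMIs over both sets to be compared, and was counted as higher or lower at 2-fold. A gene at 0 was given a floor of 3 counts over the set. No test was run, since each preparation had 1 library, and the scripts were checked on simulated data. Python 3.11.15, numpy 2.4.6, scipy 1.17.1, pandas 2.3.3 and scanpy 1.11.5 were used.

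The members and gene lists were chosen with earlier results of these data known, and the endothelial set and the ranges of the myelin share after the data were seen. Genes named with values were the markers, the compact myelin genes, up to 4 genes per list by level, list genes past 2-fold the same way in both libraries, and the 10 genes with the largest folds in each direction, with at least 50 UMIs; genes named in the ranges and others named beside them were chosen after their values were seen. Older symbols matched 4 list genes. Alternatives were other marker, gene, mitochondrial and depth limits, thinning to 500 UMIs, median-of-ratios scaling and bins of marker UMIs. Some members of the lists are counted but not reported here by name.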

Additional observations from a re-analysis of the deposited data

Results flagged for a closer look

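Erbb2, the co-receptor through which axonal neuregulin acts, differed in opposite directions between members and reference cells of the 2 libraries. In FACS it stood at 36.0 CPM in members (40 UMIs) and 75.2 in reference cells (15 UMIs), a log2 ratio of -1.06. In beads it stood at 69.2 CPM in members (33 UMIs) and 34.3 in reference cells (17 UMIs), a log2 ratio of 1.01. The difference between the libraries was not tested. Of 6610 genes past the filter in both libraries, 26 were at least 2-fold higher in one and lower in the other.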

How the results depend on the processing

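No paired analysis was possible because each preparation had 1 library, and for the same reason no library could be left out. Of 12 cell counts recomputed, 10 stayed within 1.5 times, and bead members numbered 555 with 2 marker UMIs required and 149 with 4. The compact myelin median of FACS against adult members turned from -0.06 to 0.11 under median-of-ratios scaling. By size, 183 of 185 list medians moved by less than the spread among their genes. The other 2, FACS against bead members with 10 or more marker UMIs (chosen after seeing the data), were 0.58 for compact myelin (1.56 in all members) and 1.05 for cholesterol (1.97). Counts of genes past 2-fold depended on the filter. Requiring 1 UMI gave 1772 lower in FACS members against reference, 877 higher and 1309 lower in beads, 1212 and 1048 in FACS against beads, and 1589 and 1538 lower against adult in FACS and beads. Requiring 50 gave 495 and 365, 143 and 182, 330 and 282, and against adult 948 and 341 in FACS and 751 and 242 in beads. Cells of 1000 to 3000 UMIs gave 537 and 423 in FACS against reference, 439 and 366 in FACS against beads, and 402 lower in FACS against adult. Thinning to 500 UMIs gave 357 and 313, 181 and 247, 281 and 335, 561 and 266, and 552 and 209. All these keep fewer or more genes past the filter by construction. Median-of-ratios scaling divided ratios by their median over genes with 10 UMIs in each set, a log2 of -0.29 for FACS members against reference. That raised the ratios there and gave 1307 genes higher and 522 lower (859 and 895 by CPM). In FACS against beads it gave 933 and 363 (689 and 551). FACS against beads with 3 to 9 marker UMIs gave 436 higher. Thinning moved 278 of 328 cell shares beyond their intervals, since 1 UMI is seen less often in shallower cells.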
